A study of Homo sapiens with 6 samples.

Results

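Genes for plasma membrane receptors, channels, transporters and adhesion molecules were examined in MDA-MB-231 cells that carried a hairpin against LOXL2, an enzyme of the lysyl oxidase family that crosslinks matrix collagen. The members were the entries to which the authors' deposited table of log ratios gives the location "Plasma Membrane", without 14 genes named in the rule for junction proteins, integrins, caveolin and a few others. Of 724 entries, 84 had that location, 12 of them (11 genes) were left out, and 72 entries for 72 different genes remained. The table's own type column put 13 of the 72 under transmembrane receptor, 9 under G-protein coupled receptor, 4 under ion channel and 10 under transporter. A further 8 were kinases, enzymes or a transcription regulator, and 28 had the type "other".

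MDA-MB-231 is a human triple-negative breast cancer cell line of mesenchymal shape. Cells of both groups had been infected with a lentivirus, which delivered the LOXL2 hairpin in the shLOXL2 group (3 arrays) and a control hairpin in the shControl group (3 arrays). No source used here gives the number of hairpins or says whether the cells were a pool or a clone. The source name of shControl replicates 2 and 3 reads shLOXL2, against their title and knockdown field, and both were kept as controls. LOXL2 itself had the lowest log ratio of the authors' deposited table, -3.039, and the sign of the table was read from it, so its direction does not check the knockdown.

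Proteins of the plasma membrane carry signals and solutes across the cell's boundary. Receptors bind ligands outside and start signalling inside, either through their own kinase or adaptor proteins or, in G-protein coupled receptors, through heterotrimeric G proteins. Channels and transporters move ions and nutrients, and adhesion molecules bind matrix or neighbouring cells. In breast cancer cells these groups are studied for growth control, migration and contact with immune cells.

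The values are of separate kinds and could not be joined. The authors' deposited table gives 1 log ratio for each entry, with no replicate error and no value per array, and it states neither log base nor direction nor a rule of selection. The arrays give log2 values of 32321 probe sets that are identified by number alone, so no per-array value can be given for any member. Every entry of the authors' deposited table was at least 0.537 in size, so the members were chosen for their difference, and their log ratios are given as a description without a test. Where a fold is given, it assumes log2. The check of the line against vimentin, CD44, fibronectin, the oestrogen and progesterone receptors, ERBB2 and E-cadherin could not be made, since 0 of these 7 markers had an entry there.

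More members were listed lower than higher in shLOXL2 cells. Of the 72 members, 43 were listed lower (59.7%) and 29 higher (40.3%) in the authors' deposited table, where 43.1% of all 724 entries were listed lower and 56.9% higher. The median log ratio was -0.586 over the members and 0.562 over all entries of the authors' deposited table. Every entry was at least 0.537 in size, so each median lies on the side with more entries. The distance between these medians therefore measures no shift. Members listed higher had a median of 0.703 and those listed lower -0.728, against 0.65 and -0.664 over all entries of the authors' deposited table. Entries typed as ion channel (4 of 4) and transporter (8 of 10) were mostly listed lower in the authors' deposited table. So were those typed as G-protein coupled receptor (6 of 9) and as kinase, enzyme or regulator (6 of 8). These types do not always match function. CLNS1A and DDI2, both listed lower, are better known for roles other than channel and transporter. PANX1, a channel that releases ATP, is typed as transporter and was listed higher, at 0.725 in the authors' deposited table. Receptors (7 higher, 6 lower) and the type "other" (15 higher, 13 lower) were divided there. On the arrays, 1322 probe sets differed by at least 0.537 on the log2 scale, 608 higher and 714 lower in shLOXL2. That split moved to 659 higher and 656 lower with quantile normalization, and to 719 and 622 with arrays centred on their medians. No test of these shares was made.

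**Figure D1:**
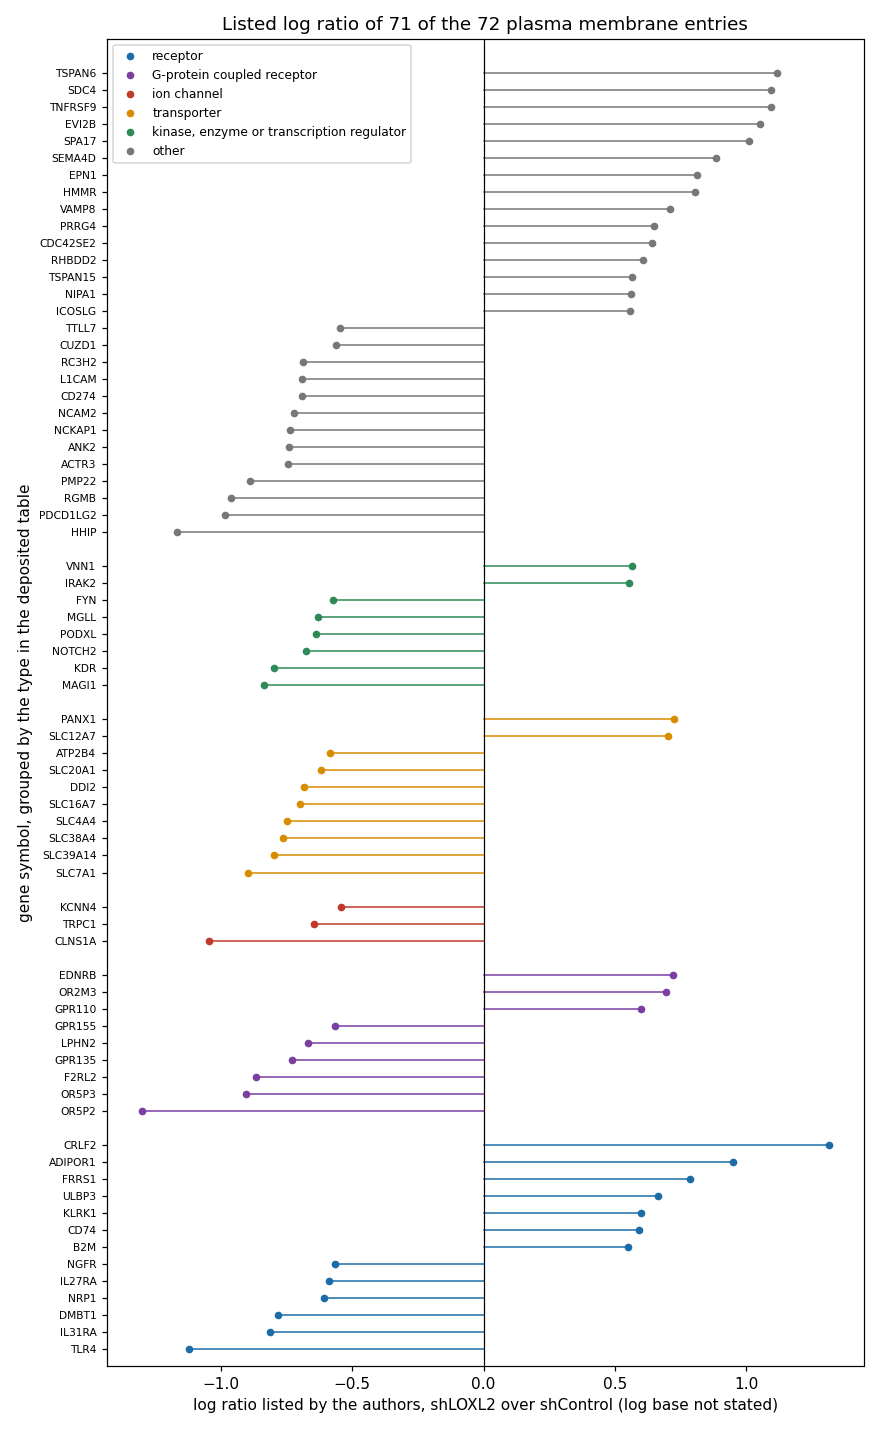
Listed log ratio (horizontal axis, log base not stated) of 71 of the 72 members, from the authors' deposited table, with genes on the vertical axis grouped and coloured by type. Points are single listed values without error. The ion channels shown and 8 of 10 transporters lie left of 0, and the 13 receptors lie on both sides, from -1.120 for TLR4 to 1.315 for CRLF2.

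In size the members ran from 0.542 to 1.315, with a median of 0.714 against 0.652 over the authors' deposited table. A size of 1 or more was listed for 11 members (15.3%), 6 higher and 5 lower, where 9.25% of all entries of the authors' deposited table reached it. The share was not particular to the members. It was 16.7% (10 of 60) for the extracellular space, 10.9% for unknown location, 7.14% for the nucleus and 6.19% for the cytoplasm. The 6 higher members of that size were CRLF2, TSPAN6, SDC4, TNFRSF9, EVI2B and SPA17, and the 5 lower included OR5P2, HHIP, TLR4 and CLNS1A. The members nearest to the lower limit of the authors' deposited table were B2M at 0.548, IRAK2 at 0.554 and ICOSLG at 0.557 on the higher side. On the lower side of the authors' deposited table they were KCNN4 at -0.542, TTLL7 at -0.546 and CUZD1 at -0.560.

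By location, the plasma membrane members held a smaller part of higher entries than the nucleus. Of 182 nuclear entries 148 (81.3%), and of 194 cytoplasmic entries 110 (56.7%), were listed higher in the authors' deposited table. Entries of the extracellular space were divided evenly there (30 and 30), and those of unknown location were more often listed lower (98 of 174). These shares of the authors' deposited table were not tested against each other. A further 30 entries had no location at all, 11 listed higher and 19 lower (63.3%) in the authors' deposited table, and any membrane gene among them was not counted as a member.

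**Figure D2:**
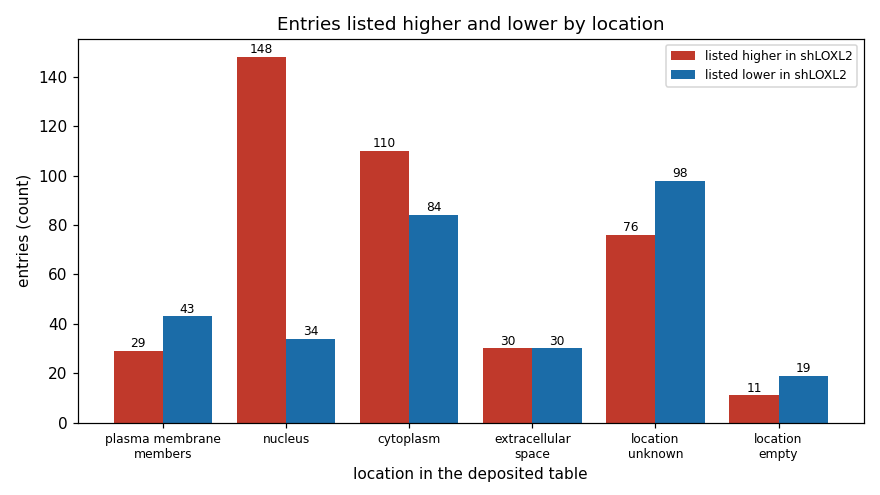
Number of entries (vertical axis) listed higher (red) and lower (blue) in shLOXL2 by location in the authors' deposited table. The plasma membrane members stand at 29 higher and 43 lower, and nuclear entries at 148 and 34.

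Receptors for cytokines and for innate immune signals lay at both ends of the range. CRLF2, which pairs with the interleukin-7 receptor alpha chain to bind the cytokine TSLP, had the highest log ratio of all members, 1.315 in the authors' deposited table (2.49-fold if log2). TLR4, the receptor for bacterial lipopolysaccharide, was listed at -1.120 in the authors' deposited table (2.17-fold lower if log2), and IRAK2, a kinase-like adaptor downstream of Toll-like and interleukin-1 receptors, at 0.554. IL31RA, a chain of the interleukin-31 receptor, was listed at -0.812 in the authors' deposited table, and IL27RA, which binds interleukin-27, at -0.589. Of 42 cytokine receptor genes looked up, these 3 had an entry in the authors' deposited table, 1 higher and 2 lower, and of 10 Toll-like receptors TLR4 alone had one. Of all 19976 protein-coding genes 588 (2.94%) had an entry in the authors' deposited table, and nothing is read from 0 or few entries in a family of this size.

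The members of the TNF receptor superfamily, TNFRSF9 and NGFR, were listed in opposite directions. TNFRSF9, also called 4-1BB, a co-stimulatory receptor of lymphocytes that is a known NF-kB target, was listed at 1.092 in the authors' deposited table (2.13-fold if log2). NGFR, the low-affinity receptor for neurotrophins, was listed at -0.567 in the authors' deposited table. Of 29 superfamily genes looked up, these 2 had an entry analysed here.

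SDC4 was listed beside TNFRSF9 near the upper end. It encodes syndecan 4, a heparan sulphate proteoglycan that works with integrins at focal adhesions, and its log ratio was 1.095 in the authors' deposited table, the one entry among 11 syndecan and glypican genes looked up. The promoters of SDC4 and TNFRSF9 are shown because both hold a match to the NF-kB motif close to the start site. They are given from RefSeq (GRCh38.p14), 250 bases before to 50 bases after the annotated start, 5′ to 3′ on the gene's strand, with the matches in capitals. SDC4 lies at chr20:45348375-45348674 (minus strand) and TNFRSF9 at chr1:7940790-7941089 (minus strand).
SDC4: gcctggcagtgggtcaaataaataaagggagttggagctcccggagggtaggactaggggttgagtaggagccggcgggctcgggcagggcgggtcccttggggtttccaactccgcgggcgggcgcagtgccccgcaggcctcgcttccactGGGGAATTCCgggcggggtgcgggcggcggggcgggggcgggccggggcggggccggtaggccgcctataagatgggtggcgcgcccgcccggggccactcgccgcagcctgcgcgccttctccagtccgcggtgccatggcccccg
TNFRSF9: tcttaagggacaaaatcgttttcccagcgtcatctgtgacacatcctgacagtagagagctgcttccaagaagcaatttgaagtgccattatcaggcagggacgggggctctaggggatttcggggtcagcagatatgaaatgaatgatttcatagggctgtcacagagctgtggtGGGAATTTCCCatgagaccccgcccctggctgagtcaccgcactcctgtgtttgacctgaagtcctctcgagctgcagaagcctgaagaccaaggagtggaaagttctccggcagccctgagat
The match in SDC4, GGGGAATTCC, runs from base -97 to -88 relative to the start, and the matches on both strands of TNFRSF9, GGGAATTTCC and its overlap, run from -74 to -64. Both genes were listed higher, and the same motif was as common among members listed lower.

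KDR, the main VEGF receptor tyrosine kinase of endothelium, was listed at -0.797 and its co-receptor NRP1 (neuropilin 1), which also binds class 3 semaphorins, at -0.607 in the authors' deposited table. KDR was the one entry among 34 receptor tyrosine kinases outside the EGF receptor family, and the 4 genes of that family had no entry analysed here. SEMA4D, a membrane semaphorin that binds plexin B receptors, was listed higher at 0.885 in the authors' deposited table. NOTCH2, a receptor whose cleaved part acts in the nucleus, was listed at -0.676 in the authors' deposited table, the one entry among 10 Notch receptors and ligands. HHIP, which binds and sequesters Hedgehog ligands, had the second lowest log ratio of the members, -1.167 in the authors' deposited table (2.25-fold lower if log2).

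Other members that the table types as receptors were listed in both directions. ADIPOR1, a receptor for the fat hormone adiponectin, was listed at 0.950 and FRRS1, a ferric-chelate reductase, at 0.786 in the authors' deposited table. DMBT1, a scavenger receptor cysteine-rich glycoprotein of mucosal surfaces, was listed at -0.782 in the authors' deposited table.

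Molecules of antigen presentation and immune recognition were listed in both directions. The checkpoint ligands CD274 (PD-L1) and PDCD1LG2 (PD-L2), which bind the inhibitory receptor PD-1 of T cells, were listed lower, at -0.693 and -0.986 in the authors' deposited table (1.62-fold and 1.98-fold if log2). B2M, the light chain of HLA class I molecules, was listed higher at 0.548 and CD74, the invariant chain of HLA class II, at 0.592 in the authors' deposited table. ULBP3, a stress-induced ligand of the natural killer receptor NKG2D, was listed at 0.664 and KLRK1, which encodes that receptor, at 0.598 in the authors' deposited table. ICOSLG, the ligand of the T-cell co-stimulator ICOS, was listed at 0.557 in the authors' deposited table. Of the 32 genes of the antigen presentation and checkpoint list, 4 had an entry in the authors' deposited table, 2 higher (ULBP3, ICOSLG) and 2 lower (CD274, PDCD1LG2). B2M, CD74 and KLRK1 were not on that list. KLRK1 overlaps the read-through gene KLRC4-KLRK1 in RefSeq, so its entry may hold signal of both.

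The promoters of B2M and CD274 are shown because both hold overlapping matches to the interferon response element while the genes were listed in opposite directions. They are given as above, with the matches in capitals. B2M lies at chr15:44711267-44711566 (plus strand) and CD274 at chr9:5450292-5450591 (plus strand).
B2M: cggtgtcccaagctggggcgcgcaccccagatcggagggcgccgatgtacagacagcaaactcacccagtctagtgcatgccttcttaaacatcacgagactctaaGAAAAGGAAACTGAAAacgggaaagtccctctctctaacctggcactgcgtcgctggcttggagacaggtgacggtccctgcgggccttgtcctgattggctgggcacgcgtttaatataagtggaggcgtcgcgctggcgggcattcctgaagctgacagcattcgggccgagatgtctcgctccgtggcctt
CD274: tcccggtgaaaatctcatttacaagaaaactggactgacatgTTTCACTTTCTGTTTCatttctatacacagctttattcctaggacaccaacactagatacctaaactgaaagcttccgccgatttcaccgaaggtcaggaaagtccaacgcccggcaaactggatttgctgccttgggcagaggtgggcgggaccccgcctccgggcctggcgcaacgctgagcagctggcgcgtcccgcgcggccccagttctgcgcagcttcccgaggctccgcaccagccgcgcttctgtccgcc
In B2M the run GAAAAGGAAACTGAAA lies from base -144 to -129, with the motif on the gene's own strand. In CD274 the run TTTCACTTTCTGTTTC lies from -208 to -193, with the motif on the opposite strand. The motif searched was GAAA, any 2 bases and GAAA again, which 3.65% of all promoters hold.

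G-protein coupled receptors were listed lower in 6 of 9 cases. EDNRB, the type B receptor for endothelins, was the highest at 0.721 in the authors' deposited table and the one entry among 81 amine, peptide and prostanoid receptors. F2RL2 (PAR3), a thrombin receptor cleaved by protease, was listed at -0.865 in the authors' deposited table, the one entry among 29 protease-activated, lysophospholipid and nucleotide receptors. The adhesion receptors GPR110 (ADGRF1) and LPHN2 (ADGRL2, latrophilin 2) were listed at 0.599 and -0.667 in the authors' deposited table. GPR135 and GPR155, also typed as G-protein coupled receptors, were listed lower, at -0.728 and -0.565 in the authors' deposited table. Chemokine receptors (21 genes looked up) had no entry analysed here.

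Odorant receptors, which olfactory neurons use to detect smells, gave 3 of these 9 entries. OR5P2 had the lowest log ratio of all members, -1.302 in the authors' deposited table (2.47-fold lower if log2), and OR5P3 was listed at -0.904. The genes of OR5P2 and OR5P3 are neighbours on chromosome 11, and the gene on the other side of OR5P2, OVCH2, was listed at -0.853 in the authors' deposited table. Odorant receptor genes are close in sequence, so whether these are separate measurements was not tested. OR2M3, on chromosome 1, was listed higher at 0.695 in the authors' deposited table.

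All 4 entries typed as ion channel were listed lower. TRPC1, a cation channel of the transient receptor potential family, was listed at -0.647 and KCNN4, a calcium-activated potassium channel, at -0.542 in the authors' deposited table. CLNS1A was listed at -1.044 in the authors' deposited table. It was named as a chloride channel regulator and is better known as a cytoplasmic partner in the assembly of spliceosomal particles. Of 87 potassium channel genes looked up 1 had an entry in the authors' deposited table. Ligand-gated channels (68 genes) had no entry analysed here. Of 25 chloride channel genes 2 had an entry in the authors' deposited table, ANO6 at 0.696 and ANO10 at -0.960, both with unknown location and so not members.

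Entries typed as transporter were listed lower in 8 of 10 cases. SLC7A1, which imports arginine and other cationic amino acids, had the lowest value of this type, -0.896 in the authors' deposited table. The zinc and iron importer SLC39A14 was listed at -0.799, the amino acid transporter SLC38A4 at -0.763 and the sodium bicarbonate cotransporter SLC4A4 at -0.750 in the authors' deposited table. The monocarboxylate transporter SLC16A7 was listed at -0.697, the phosphate transporter SLC20A1 at -0.619 and the calcium pump ATP2B4 at -0.584 in the authors' deposited table. These 7 thus span amino acids, metals, bicarbonate, monocarboxylates, phosphate and calcium. DDI2 was listed at -0.682 in the authors' deposited table. It is typed as a transporter there but is known as an aspartic protease that activates the transcription factor NFE2L1 (also called NRF1). DDI2 is among 8 members that overlap another coding gene in RefSeq, here RSC1A1, so its entry may hold signal of both. The same caution holds for SPA17 (with SIAE), SEMA4D (SECISBP2), EPN1 (NLRP9), F2RL2 (IQGAP2), PRRG4 (CCDC73), EVI2B (NF1) and KLRK1 (KLRC4-KLRK1).

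The members of that type on the higher side, PANX1 and SLC12A7, both let ions or metabolites out of cells. PANX1, a channel that releases ATP, was listed at 0.725 and the potassium chloride cotransporter SLC12A7 at 0.703 in the authors' deposited table. Of 28 amino acid transporter genes looked up 2 had an entry in the authors' deposited table, both lower, and 1 of 24 glucose and monocarboxylate transporters had one. ABC transporters of the cell surface (19 genes) had no entry analysed here.

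Adhesion molecules of the immunoglobulin superfamily were listed lower. NCAM2 was listed at -0.720 and L1CAM, which guides axons and is found in invasive tumours, at -0.692 in the authors' deposited table. ANK2, an ankyrin that links L1CAM and ion transporters to the spectrin cytoskeleton, was listed at -0.742 in the authors' deposited table. Of 43 adhesion genes of this superfamily 4 had an entry in the authors' deposited table, 3 lower and 1 higher. The remaining entries were NEGR1 at -1.375 and F11R at 0.643 in the authors' deposited table, which are not members. Protocadherins (65 genes looked up) had no entry analysed here.

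Tetraspanins, which organise other membrane proteins into microdomains, were listed higher among the members. TSPAN6 was listed at 1.116 and TSPAN15 at 0.564 in the authors' deposited table. TSPAN17, of unknown location there and so not a member, was listed at -0.584 in the authors' deposited table, and 29 genes of this family were looked up.

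The remaining members of type "other" included proteins that work mainly inside the cell. On the lower side, RGMB, a membrane-anchored BMP co-receptor, was listed at -0.962 and PMP22, a protein of myelin, at -0.888 in the authors' deposited table. The actin regulators ACTR3, a subunit of the Arp2/3 complex, and NCKAP1, a subunit of the WAVE complex that activates it, were listed at -0.746 and -0.738 in the authors' deposited table. RC3H2, an RNA-binding protein, was listed at -0.686, CUZD1 at -0.560 and TTLL7, an enzyme that adds glutamates to tubulin, at -0.546 in the authors' deposited table.

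On the higher side, EVI2B and SPA17, a protein first described in sperm, were listed at 1.051 and 1.010 in the authors' deposited table. EVI2B lies within the gene NF1 in RefSeq. The endocytic adaptor EPN1 was listed at 0.812 and HMMR, a hyaluronan receptor that also binds the mitotic spindle, at 0.806 in the authors' deposited table. The vesicle fusion protein VAMP8 was listed at 0.708, PRRG4 at 0.648 and the Cdc42 effector CDC42SE2 at 0.639 in the authors' deposited table. RHBDD2, a rhomboid family protein, was listed at 0.606 and the magnesium transporter NIPA1 at 0.561 in the authors' deposited table.

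Among kinases and enzymes, MAGI1, a scaffold of cell junctions, was listed at -0.834 and FYN, a SRC family kinase, at -0.575 in the authors' deposited table. PODXL was listed at -0.637 in the authors' deposited table, which types it as a kinase although it is known as a sialomucin of podocytes. MGLL, a lipase that degrades an endocannabinoid, was listed at -0.630 and VNN1, a pantetheinase, at 0.563 in the authors' deposited table.

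Over all 32 families looked up (1062 genes), 42 genes had an entry in the authors' deposited table, 16 higher and 26 lower, and 30 of them were members. This is 3.95% of the family genes, beside 2.94% of all protein-coding genes, and the shares were not tested. Families not described so far were represented by few genes or by genes left out of the members. In the authors' deposited table, entries were found for 2 of 31 semaphorin, plexin and neuropilin genes, 2 of 46 adhesion and class C receptors and 1 of 32 connexin, pannexin and aquaporin genes, all of them members. Integrins (2 of 26, both lower), cadherins (1 of 29, lower), claudins and tight junction proteins (2 of 24, both higher), TGF-beta family receptors (1 of 15, higher) and EGF receptor ligands (1 of 11, lower) had entries only outside the members in the authors' deposited table. Eph receptors and ephrins (22 genes) and Wnt and Hedgehog receptors (20) had no entry analysed here.

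Known ligands, co-receptors and adaptors were looked up as partners for 22 members (88 partner genes), and 10 partner genes had an entry. Of all protein-coding genes 2.94% had one. Several of the 10 are members themselves and so had an entry by the choice of members. The 10 partner genes made 9 pairs, 6 with both genes listed in the same direction and 3 in opposite directions. No share of same-direction pairs was worked out for other genes, so nothing is read from this count. In the same direction in the authors' deposited table were KDR and NRP1, PDCD1LG2 and RGMB, which has been described as another receptor of PD-L2, L1CAM and ANK2, KLRK1 and ULBP3, and CD74 with MIF, a cytokine it binds, at 0.60. The last of these pairs was NGFR with its ligand BDNF, at -0.611 in the authors' deposited table. Opposite directions were listed for EDNRB and its ligand EDN1 (-0.691 in the authors' deposited table), IL27RA and EBI3, a chain of its ligand (0.541), and TLR4 and IRAK2. The pairs were drawn up after the values had been seen and are a description.

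Properties that the choice of members did not use were compared between directions. The gene span in RefSeq had a median of 66.9 kb (quartiles 22.4 and 132.0) over the 43 members listed lower and 25.0 kb (15.7 and 53.1) over the 29 listed higher. Spans over 100 kb were found for 14 members listed lower (32.6%), such as LPHN2 with 687.8 kb, MAGI1 with 685.4 kb and ANK2 with 678.1 kb, and for 3 listed higher (10.3%). The same order was seen in the other genes of the authors' deposited table, with medians of 61.7 kb over 192 genes listed lower and 22.7 kb over 324 listed higher. All 19976 protein-coding genes had a median of 24.2 kb, with 16.8% over 100 kb. The longer span of genes listed lower was thus seen in membrane and other genes alike, and no test of it was made.

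**Figure D3:**
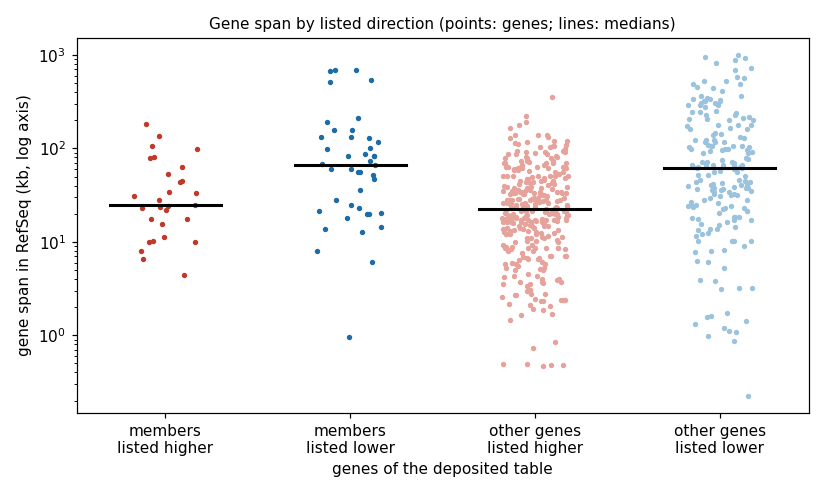
Gene span in RefSeq in kb (vertical log axis) of genes listed higher and lower in the authors' deposited table, for members and for all other matched genes. Points are genes and black lines medians, which lie at 25.0 and 66.9 kb for the members and at 22.7 and 61.7 kb for the other genes.

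Promoter sequences were matched for 57 of the 72 members, 24 listed higher and 33 lower. Both strands were searched, overlapping matches were allowed, and all 27195 promoters of the reference table were searched in the same way. The NF-kB motif was found in 7 of 24 promoters of members listed higher (29.2%), in 11 of 33 of those listed lower (33.3%) and in 10.8% of all promoters. The TEAD motif GGAATG was found in 7 of 24 (29.2%), 2 of 33 (6.06%) and 14% of all promoters, and the AP-1 motif TGANTCA in 2 of 24 (8.33%), 2 of 33 (6.06%) and 7.73%. The E-box CAGGTG was found in 3 of 24 (12.5%), 3 of 33 (9.09%) and 20.6%, the interferon response element in 1 of 24 (4.17%), 2 of 33 (6.06%) and 3.65%, and the TATA box TATAAA in 1 of 24 (4.17%), 4 of 33 (12.1%) and 12%. The median GC content was 61.8% for members listed higher, 60.0% for those listed lower and 58.3% over all promoters. A ratio of observed to expected CpG of 0.6 or more was found in 58.3%, 66.7% and 49.0%. A match is a run of letters and no evidence of binding, and GC content was not held equal between these sets.

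By position, 2 pairs of members were next to each other among protein-coding genes, and in both pairs the genes were listed in the same direction. They were CD274 and PDCD1LG2 on chromosome 9 and OR5P2 and OR5P3 on chromosome 11. A further 3 members had a neighbour with an entry in the authors' deposited table, GPR135 in the same direction and TSPAN6 and EDNRB in the opposite one. TSPAN6 stands beside SRPX2 (-0.671 in the authors' deposited table) and EDNRB beside SLAIN1 (-0.870).

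The annotation of drugs in the file marked 7 of the 72 members (9.72%), against 3.45% of all entries of the authors' deposited table. The 7 members were TNFRSF9 and EDNRB among the genes listed higher and, among those listed lower, KCNN4, FYN, KDR and TLR4 with 1 more. EDNRB was annotated with bosentan, an endothelin receptor blocker used in pulmonary hypertension, and FYN with the kinase inhibitor dasatinib.

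How well a difference of the members' size separates the groups was read from the arrays, over all probe sets and without names. Size and separation were both taken from the same arrays, so sorting by size in itself raises the share of separated groups. Of 32321 probe sets, 1 passed an adjusted p of 0.05 by limma (0.00309%), 0 higher and 1 lower, and 1781 (5.51%) had an unadjusted p under 0.05. Same-numbered arrays deviated together, a pairing that was read from these same values. With the replicate block 1 probe set passed again and 2964 had an unadjusted p under 0.05 by limma. The difference of that probe set was -3.08 on the log2 scale (shLOXL2 minus shControl, SE 0.167, adjusted p = 0.0126 by limma). No member has a log ratio near that size. The groups did not overlap for 3469 probe sets (10.7%), meaning that the 3 shLOXL2 arrays were all above or all below the 3 shControl arrays. Without the block, this share and the 5.51% lie near what arrays in random order would give.

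Among probe sets with a difference of 0.537 to 0.7, the range that holds 34 members if the table is in log2, the groups did not overlap for 324 of 758 (42.7%). The median SE of the difference there was 0.262. Between 0.7 and 1, which holds 27 members, this was 195 of 422 (46.2%, median SE 0.311). At 1 or more, which holds 11 members, it was 83 of 142 (58.5%, median SE 0.384). These shares and errors take no account of the pairs. With the replicate block the median SE was 0.179, 0.204 and 0.275 in these size ranges. An unadjusted p under 0.05 by limma was then reached by 587 of 758, 359 of 422 and 128 of 142 probe sets. Without the block it was reached by 366, 242 and 100. These counts, too, rest on sizes and a pairing taken from the same arrays. A size like that of most members was thus found on these arrays both with and without separated groups, and which applies to a given member cannot be told without probe set names. The 1322 probe sets of at least 0.537 outnumber the 724 listed entries, so these shares and counts need not hold for the listed entries. Whether the 3 arrays of a group stand for separate cultures is not stated in the labels, so these errors cover the spread between arrays, which may be technical.

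**Figure D4:**
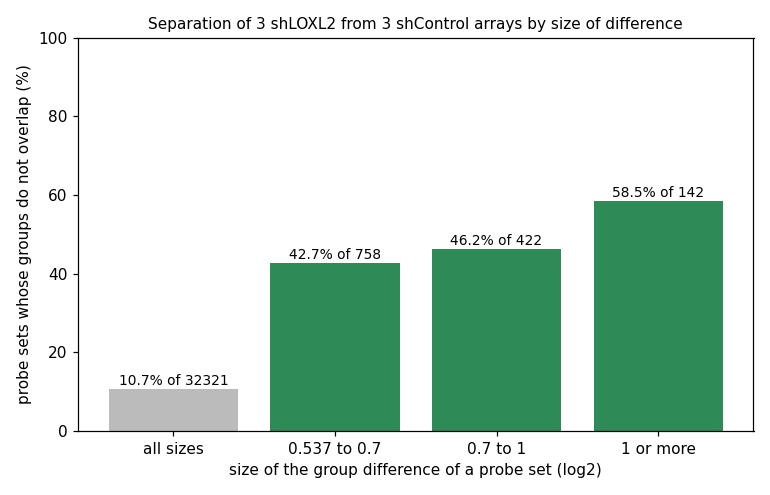
Share of probe sets (vertical axis, percent) whose 3 shLOXL2 and 3 shControl arrays do not overlap, by size of the log2 group difference. The share is 10.7% over all 32321 probe sets and 42.7%, 46.2% and 58.5% in the size ranges that hold the members. The 10.7% lies near what arrays in random order would give. Size and share come from the same arrays, so the rise with size is partly built in.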

How the data were processed

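Total RNA of MDA-MB-231 cells, 6 samples with 3 per group, was labelled with a whole-transcript kit and hybridised to Affymetrix arrays, per the labels' protocols. The array values were deposited on a log2 scale and made with RMA, per the submitters' processing notes. No source used here names its version or the probe annotation. The authors' deposited table of log ratios, handled as a score because its log base is not stated, was exported from software of Ingenuity Systems, per the file headers. Decimal commas were converted and a question mark was read as a minus sign (312 entries), which left 0 breaks in the falling order of all 724 entries.

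Members were taken by the location column, and their type by the type column. All 72 matched a RefSeq gene (assembly GRCh38.p14), 2 of them through an older symbol. Gene families were looked up in 32 lists. The members and lists were chosen with earlier results of these data known. Types of at most 15 entries were to be named in full. In the type "other" the rule named the 8 highest, the 8 lowest, list genes and those of smallest size, and the rest were added after their values were seen. One member is counted but not reported here by name.

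All 32321 probe sets were fitted in limma (3.58.1, under R 4.3.3) on group alone. Its moderated p-values were adjusted by the Benjamini-Hochberg method, and the fit was tested on simulated data. The fit planned for the members could not be read by gene because probe sets carry no names. Deviations from the group means correlated between same-numbered arrays at 0.354, 0.452 and 0.160 for replicates 1, 2 and 3, so the numbers were taken as pairs from the data, and a fit with the replicate block was an alternative. Array medians lay between 5.74 and 5.82 (log2). The number of arrays limits the precision.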

Additional observations from a re-analysis of the deposited data

How the results depend on the processing

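The split of the members, 29 listed higher and 43 lower, was the same with genes in place of entries and with symbols matched to the reference, and 37 and 47 with the left-out genes kept in. It became 17 higher and 30 lower at or above the median size of the table, 6 higher and 5 lower at a size of 1 or more, and 12 higher and 24 lower for receptor, channel and transporter types, an alternative chosen after seeing the data. Among the 11 members of size 1 or more, lower entries thus no longer outnumbered higher ones. All entries of that size were 40 higher and 27 lower in the authors' deposited table. The cause of the change in balance was not tested. On the arrays, 1 probe set was called by limma with quantile normalization, with arrays centred on their medians, with trend, without dim probe sets and with the replicate block (1 call; adjusted p = 0.0238 by limma). The block changed no call and raised the number at an unadjusted p under 0.05 from 1781 to 2964. With shControl replicate 1 as the only control, 0 were called by limma (3975 at an unadjusted p under 0.05; that single control was given the spread of the shLOXL2 arrays). Without any 1 array 0 to 0 were called by limma (1063 to 2250 at an unadjusted p under 0.05). The 1322 probe sets with a difference of at least 0.537 became 788 without the dim ones, 4897 with shControl replicate 1 as the only control and 1339 to 2158 without any 1 array, the highest being 2158, 2114 and 2003 without shLOXL2 replicate 2, shControl replicate 3 and shControl replicate 2, likewise with the cause not tested. Listed log ratios cannot be recomputed from the arrays, so no array could be left out for a member.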
